A study of Mus musculus with 10 samples.

Results

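The mitochondrial respiratory chain passes electrons from NADH and succinate to oxygen and uses the proton gradient so formed to make ATP. The genes described here are the nuclear genes for its 5 complexes. They were taken by gene symbol: those starting with Nduf and one of the letters a, b, c, s or v and a digit for complex I, Sdha to Sdhd for complex II, Uqcr for complex III, Cox4 to Cox8 for complex IV and Atp5 for complex V. Of 86 matching symbols among 27179 genes, 2 pseudogene symbols ending in -ps were left out, and 82 of the remaining 84 reached at least 10 normalized counts (counts scaled for depth by the authors) in at least 5 of 10 libraries. Assigned by symbol alone, they comprise 37 genes of complex I, 4 of complex II, 8 of complex III, 16 of complex IV and 17 of complex V. A symbol does not settle where a product sits: Ndufa4, counted here in complex I, was later found in complex IV. In all, 14362 genes met the same limit and were tested together.

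RNA from pulverized femurs of 10 mice was depleted of ribosomal RNA and sequenced, 1 library per mouse by title. The 5 mutant mice were heterozygous for N330I, an amino acid change in the receptor FGFR1 (Fgfr1+/N330I), in a model of osteoglophonic dysplasia by the series title, and were labelled male in 2 cases and female in 3. The other 5 mice were wild-type (WT) littermates, again 2 labelled male and 3 labelled female. The series gives ages of 3 or 4 weeks without tying them to single mice, and p-values measure the spread between mice.

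Complex I (NADH dehydrogenase) and complex II (succinate dehydrogenase) feed electrons into ubiquinone, complex III hands them to cytochrome c, complex IV (cytochrome c oxidase) reduces oxygen, and complex V is ATP synthase. Most subunits are nuclear genes whose products are imported, while a core set is made from mitochondrial DNA, so that both genomes have to supply each complex except complex II. Transcription of the nuclear genes is known to depend on NRF1, on the ETS-family factor GABP, on YY1 and on estrogen-related receptors with their PGC-1 coactivators. In bone, osteoclasts are rich in mitochondria, and osteoblasts combine glycolysis with respiration.

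Promoter sequence of 1 gene per complex is shown to give examples of what the NRF1 and ETS motifs look like near the start of these genes, which moved together across libraries, as described below. The 5 genes were picked because their sequence holds a match: of 68 genes with such a stretch, 19 hold one. Each line gives the 100 bases just before the RefSeq transcription start on the gene's own (minus) strand, from RefSeq on GRCm38.p6, the assembly behind mm10. Capitals mark matches to an NRF1 motif (GCGCA, any base, then GCGC) or an ETS motif (CCGGAAG, or CTTCCGG on the other strand), both strands searched. The windows are chr16:37654369-37654468 for Ndufb4, chr9:50603850-50603949 for Sdhd, chr4:116075071-116075170 for Uqcrh, chr5:115348959-115349058 for Cox6a1 and chr5:108434400-108434499 for Atp5k.
Ndufb4 (complex I): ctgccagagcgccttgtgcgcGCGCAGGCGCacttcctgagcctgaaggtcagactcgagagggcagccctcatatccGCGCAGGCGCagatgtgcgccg
Sdhd (complex II): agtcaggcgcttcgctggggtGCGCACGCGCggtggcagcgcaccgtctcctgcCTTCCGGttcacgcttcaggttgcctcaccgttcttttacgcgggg
Uqcrh (complex III): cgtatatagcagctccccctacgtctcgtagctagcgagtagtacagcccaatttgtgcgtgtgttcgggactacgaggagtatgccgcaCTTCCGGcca
Cox6a1 (complex IV): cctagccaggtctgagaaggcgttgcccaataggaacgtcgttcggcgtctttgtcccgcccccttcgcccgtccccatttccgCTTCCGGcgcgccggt
Atp5k (complex V): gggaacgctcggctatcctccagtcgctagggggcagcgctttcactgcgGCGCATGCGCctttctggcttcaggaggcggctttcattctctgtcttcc

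RefSeq promoters, 250 bases before to 50 bases after the start, were found for 68 of the 82 genes. The NRF1 motif lay in 17 of them (25%), against 10.8% of the promoters of 11138 tested genes. The ETS motif lay in 16 (23.5%), against 18.8%. A YY1 motif (AAGATGG) was present in 12 (17.6%), against 8.09%, and an estrogen-related receptor half-site (AAGGTCA) in 8 (11.8%), against 3.86%. An E-box (CANNTG) was about as frequent as elsewhere, in 48 (70.6%) against 67.4%. The motifs were counted on both strands and without regard to overlap with each other. A match describes the letters only.

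Read depth, estimated from the spacing of the deposited values, ran from 12.9 to 30.6 M reads per library outside Rn45s, the ribosomal RNA precursor. Of the markers used to check the femur label, 8 osteoblast markers held 1.6% to 6.83% of the counts outside Rn45s, while those of erythroid cells (at most 0.0000892%) and of neutrophils (at most 0.000191%), both abundant in intact marrow, were near 0. In female-labelled WT 3, Rn45s took 28.8% of counts. In male-labelled WT 1, values changed by -1.62 on the log2 scale per log10 of exon length, against -0.48 to 0.45 in the other 9 libraries. For Xist and Ddx3y, the library labelled male mutant 2 held 7972 and 4 counts, whereas the other 3 male-labelled libraries held 14 to 48 and 1558 to 1936, so that its sex label goes against these genes. The male-labelled libraries also carry names of another pattern than the female-labelled ones, which coincides with labelled sex. Fgfr1 itself ran from 3861 counts in male-labelled WT 1 to 12990 in female-labelled mutant 3, and these counts do not separate the alleles.

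As a share of counts outside Rn45s, the summed level of the 82 genes was highest in male-labelled WT 1 and lowest in female-labelled WT mice. It was 1.05% and 0.892% in the male-labelled mutants and 0.717%, 0.742% and 0.756% in the female-labelled mutants. The WT values were 1.48% and 0.983% in the male-labelled mice and 0.674%, 0.681% and 0.682% in the female-labelled mice. The mutant mean was 0.832% ± 0.142 and the WT mean 0.9% ± 0.35 (SD, n = 5 each), and the ranges overlapped. In summed normalized counts, female-labelled WT 3 (192367) lay above the female-labelled mutants (184596 to 188615), unlike in the share. Male-labelled WT 1 held the highest value of 77 of the 82 genes (93.9%, against 31.8% of all tested genes). The exceptions were Ndufa4l2, Ndufs1, Cox6b2 and Cox7a1, highest in male-labelled mutant 1, and Cox8b, highest in female-labelled mutant 3. The 82 genes are short, with a median of 679 exon bases against 2825 for all tested genes, and shorter genes had the relatively higher values in male-labelled WT 1. With each library's linear trend on exon length removed, the median deviation of the 82 genes in male-labelled WT 1 was 0.17 in place of 1.14 on the log2 scale.

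**Figure D1:**
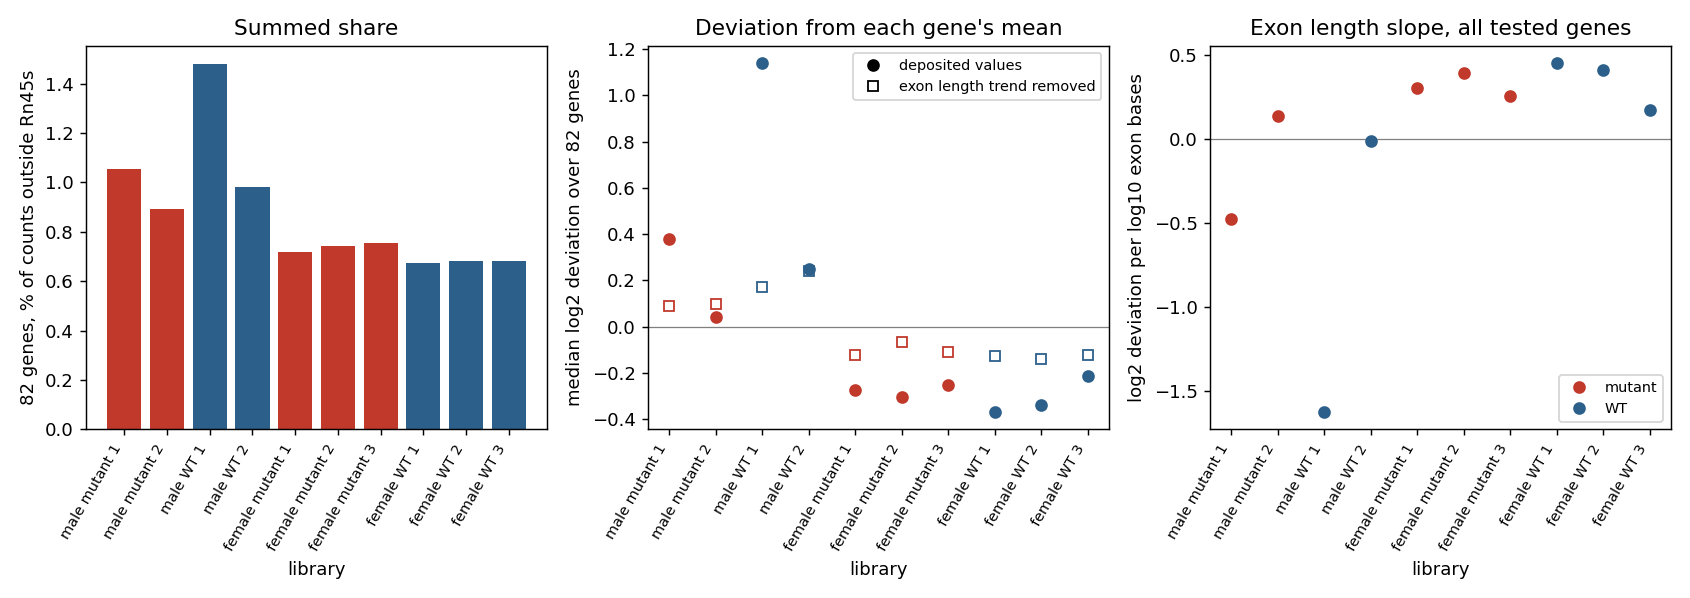
Left, summed share of the 82 genes in the counts outside Rn45s (percent) per library. Middle, median log2 deviation of the 82 genes from each gene's mean over the 10 libraries, for deposited values (filled circles) and after removal of each library's exon length trend (open squares). Right, slope of the log2 deviation on log10 exon bases over all tested genes. Red is mutant and blue is WT. Male-labelled WT 1 stands apart in all 3 panels for deposited values, and its open square (0.17) lies close to that of male-labelled WT 2 (0.24).

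Mutant and WT femurs were compared over all 10 mice with labelled sex as a covariate. None of the 82 genes passed an adjusted p of 0.05 (limma, 0% of all 14362 tested genes did), and none reached an unadjusted p of 0.05 in either direction, against 3.69% of all tested genes higher and 2.62% lower. The estimate lay below 0 in 77 genes and above 0 in 5 (Ndufa4l2, Cox4i2, Cox6b2, Cox8b and Atp5s). The median log2 difference, mutant minus WT, was -0.17 over the 82 genes and -0.01 over all tested genes, with a median SE of 0.19 per gene. It was -0.18 in complex I, -0.17 in complex II, -0.18 in complex III, -0.18 in complex IV and -0.14 in complex V. No gene had mutant and WT libraries that failed to overlap, against 0.494% of tested genes that were higher and 0.334% that were lower without overlap. The sign of the median rested on male-labelled WT 1: without it the median was 0.01, and 48 of 82 estimates were above 0. With the exon length trend removed the median was -0.04, and 25 estimates were above 0. In bulk RNA, fewer cells of a type and less RNA per cell cannot be told apart.

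**Figure D2:**
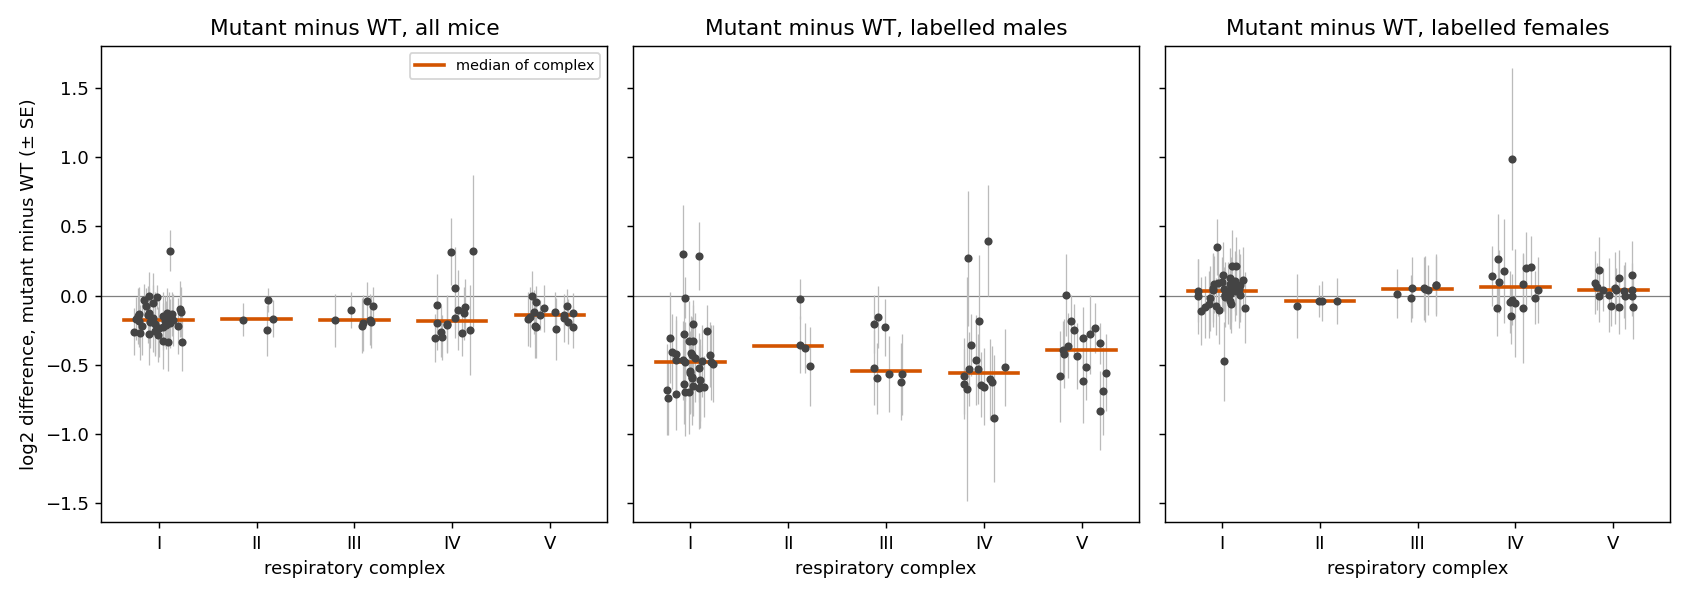
Log2 difference, mutant minus WT, of each gene by complex (points, with SE as bars), over all mice (left), within male-labelled mice (middle) and within female-labelled mice (right). Orange lines are medians per complex. The medians lie at -0.18 to -0.14 over all mice, at -0.56 to -0.37 in male-labelled mice and at -0.04 to 0.06 in female-labelled mice.

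In complex I, Ndufa4l2 had the smallest p of all 82 genes. It encodes a paralogue of Ndufa4 that is induced by hypoxia-inducible factor, and it lies at chr10:127514939-127517154 (mm10). Its normalized counts were 8403 and 6052 in the male-labelled mutants and 6899, 4382 and 6755 in the female-labelled mutants, against 5482 and 6228 in the male-labelled WT mice and 4612, 4320 and 4957 in the female-labelled WT mice. Mutant values were higher on average but overlapped with WT in both labelled sexes. The log2 difference was 0.32 ± 0.15 (SE). In limma's fit over all tested genes the adjusted p was 0.786, and the unadjusted one 0.0543. Leaving out each library in turn gave 0.26 to 0.44.

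Ndufa4l2 was also the complex I gene with the highest mean level per exon length over all 10 libraries. It had 6755 ± 1518 normalized counts per kilobase in mutants and 5322 ± 785 in WT mice (n = 5 each, SD). In WT mice alone, Ndufa7 (5966) and Ndufa2 (5325) had higher means. The lowest was Ndufb4, an accessory subunit of the membrane arm at chr16:37647602-37654368. Ndufb4 had 278 and 215 in the male-labelled mutants and 176, 150 and 138 in the female-labelled mutants, against 551 and 285 in the male-labelled WT mice and 151, 166 and 180 in the female-labelled WT mice. Apart from male-labelled WT 1, the WT counts of 151 to 285 overlapped with the mutant counts of 138 to 278. Its log2 difference was -0.34 ± 0.21 (adjusted p = 0.795), and Ndufa12, another accessory subunit, had -0.33 ± 0.20 (adjusted p = 0.795). Ndufs1, the large iron-sulphur subunit with the longest exon sequence of the complex, had 2779 and 2202 in the male-labelled mutants and 2133, 2142 and 1925 in the female-labelled mutants, against 2479 and 2518 in the male-labelled WT mice and 2094, 1950 and 2196 in the female-labelled WT mice. All libraries but male-labelled mutant 1 lay between 1925 and 2518. The 95% interval of its log2 difference was -0.21 to 0.18.

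Complex II is encoded wholly in the nucleus. Sdha, the flavoprotein, had 7152 and 6093 in the male-labelled mutants and 5198, 5069 and 4666 in the female-labelled mutants, against 7179 and 6288 in the male-labelled WT mice and 4948, 5045 and 5334 in the female-labelled WT mice. Groups overlapped within each labelled sex, and the 95% interval of the log2 difference was -0.23 to 0.16. Sdhb, the iron-sulphur subunit, had 3980 and 2890 in the male-labelled mutants and 2406, 2364 and 2282 in the female-labelled mutants, against 6752 and 3458 in the male-labelled WT mice and 2294, 2378 and 2783 in the female-labelled WT mice. Its male-labelled WT 1 value was far above the other 4 WT values, which all lay within the mutant range. The log2 differences were -0.25 ± 0.18 for Sdhb, -0.18 ± 0.12 for the membrane anchor Sdhc and -0.17 ± 0.13 for the anchor Sdhd, with adjusted p-values of 0.8, 0.795 and 0.807. Per exon length, Sdhb was the highest, at 2593 ± 661 normalized counts per kilobase in mutants and 3290 ± 1729 in WT mice, and Sdha the lowest, at 1971 ± 348 normalized counts per kilobase in mutants and 2014 ± 334 in WT mice (n = 5 each, SD).

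In complex III, Uqcrh, the hinge protein that helps cytochrome c dock, was highest per exon length, at 6837 ± 1795 normalized counts per kilobase in mutants and 8550 ± 5293 in WT mice (n = 5 each, SD). Uqcrfs1, the Rieske iron-sulphur protein, was lowest, at 1766 ± 516 normalized counts per kilobase in mutants and 1912 ± 788 in WT mice. The 3 genes with the smallest p were the small subunits Uqcr10, Uqcrq and Uqcr11. Uqcr10 had 2739 and 2111 in the male-labelled mutants and 1634, 1689 and 1753 in the female-labelled mutants, against 5121 and 2675 in the male-labelled WT mice and 1469, 1546 and 1910 in the female-labelled WT mice. All 3 female-labelled mutants lay between the lowest and the highest female-labelled WT mouse. The log2 differences were -0.22 ± 0.20 for Uqcr10, -0.19 ± 0.19 for Uqcrq and -0.20 ± 0.20 for Uqcr11 (adjusted p = 0.816, 0.82 and 0.823). Without male-labelled WT 1, the estimates of Uqcrq and Uqcr11 were both 0.01.

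Among the widely expressed subunits of complex IV, Cox4i1 was highest per exon length of all 82 genes, at 13075 ± 2765 normalized counts per kilobase in mutants and 16880 ± 10595 in WT mice (n = 5 each, SD). Cox6a1 had 5735 and 4544 in the male-labelled mutants and 3489, 3785 and 3979 in the female-labelled mutants, against 9762 and 5595 in the male-labelled WT mice and 3981, 3782 and 4731 in the female-labelled WT mice. Its female-labelled mutants reached from below the lowest to within the female-labelled WT range. The smallest p-values of the complex belonged to Cox6a1, with a log2 difference of -0.30 ± 0.16, and to the matrix-side subunits Cox5a (-0.31 ± 0.17) and Cox5b (-0.27 ± 0.17), each with an adjusted p of 0.795.

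In complex V, Atp5b, the catalytic beta subunit, was highest per exon length, at 11578 ± 2185 normalized counts per kilobase in mutants and 12491 ± 4022 in WT mice, and Atp5s, coupling factor B, was lowest, at 74.7 ± 10 normalized counts per kilobase in mutants and 75.8 ± 18.1 in WT mice (n = 5 each, SD). Atp5b had 28351 and 23171 in the male-labelled mutants and 18543, 19589 and 19125 in the female-labelled mutants, against 35659 and 26070 in the male-labelled WT mice and 18425, 18265 and 18935 in the female-labelled WT mice. Female-labelled mutants (18543 to 19589) and WT mice (18265 to 18935) overlapped. The smallest p-values belonged to Atp5g1 and Atp5g3, which both encode the c subunit of the rotor ring, and to Atp5sl, named for its likeness to Atp5s. Atp5g1 had a log2 difference of -0.23 ± 0.15 (adjusted p = 0.795). Atp5g3 had -0.14 ± 0.10 (adjusted p = 0.8), and Atp5sl had -0.14 ± 0.11 (adjusted p = 0.805).

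Several subunits have a tissue-restricted isoform beside the widely expressed one. Ndufa4, first named as a complex I subunit and later found in complex IV, had 2794 and 2030 in the male-labelled mutants and 1438, 1542 and 1413 in the female-labelled mutants, against 5398 and 2942 in the male-labelled WT mice and 1260, 1272 and 1498 in the female-labelled WT mice. Ndufa4l2 made up 60.6% and 60.4% of the sum of both per exon length in male-labelled mutants and 71.0%, 59.2% and 71.0% in female-labelled mutants. The WT shares were 34.2% and 52.0% in male-labelled mice and 65.2%, 63.5% and 62.9% in female-labelled mice. The mean share was 64.5% ± 6.01 in mutants and 55.5% ± 13 in WT mice (n = 5 each, SD), and the groups overlapped in female-labelled mice. In male-labelled mice both mutant shares lay above both WT shares, with male-labelled WT 1 the lowest library of all, at 34.2%.

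Cox4i2, the isoform known from lung and hypoxic cells, averaged 7.25% ± 1.57 of its pair with Cox4i1 in mutants and 5.33% ± 2.06 in WT mice (n = 5 each, SD). Its normalized counts were 782 and 907 in the male-labelled mutants and 554, 540 and 903 in the female-labelled mutants, against 967 and 423 in the male-labelled WT mice and 656, 419 and 568 in the female-labelled WT mice. The highest value was in a WT mouse, and the log2 difference was 0.32 ± 0.24 (adjusted p = 0.804). Cox6b2, a testis isoform, averaged 1.78% ± 0.662 of its pair with Cox6b1 in mutants and 1.46% ± 0.579 in WT mice. Its log2 difference was 0.06 ± 0.30 (adjusted p = 0.962).

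Heart and skeletal muscle use Cox6a2, Cox7a1 and Cox8b in place of Cox6a1, Cox7a2 and Cox8a. Cox6a2 averaged 4.45% ± 2.02 of its pair in mutants and 3.89% ± 1.16 in WT mice. For Cox7a1 the shares were 3.94% ± 1.02 in mutants and 3.67% ± 0.783 in WT mice (n = 5 each, SD). Cox8b had 9 and 49 in the male-labelled mutants and 23, 25 and 54 in the female-labelled mutants, against 52 and 23 in the male-labelled WT mice and 24, 10 and 15 in the female-labelled WT mice. Its mutant libraries held both the lowest and the highest value. Per exon length it was the lowest of complex IV, at 88.2 ± 52.1 normalized counts per kilobase in mutants and 68.3 ± 44.8 in WT mice, and its share was 1.00% ± 0.615 in mutants and 0.603% ± 0.221 in WT mice. The log2 differences were -0.25 ± 0.32 for Cox6a2, -0.10 ± 0.29 for Cox7a1 and 0.32 ± 0.55 for Cox8b (adjusted p = 0.851, 0.925 and 0.884).

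Markers of skeletal muscle were followed beside these isoforms. The 17 markers summed to 0.00355% to 0.0400% of counts outside Rn45s in mutants and 0.00265% to 0.0122% in WT mice. All 17 estimates were above 0, with a median log2 difference of 1.19. Of these, 4 (Neb, Ttn, Casq1 and Atp2a1) reached an unadjusted p of 0.05 and none an adjusted one. At that unadjusted p, 3.69% of all tested genes were higher and 2.62% lower. Only 2 of 5 slow muscle and heart markers were tested, with a median of 0.66. Brown fat markers, among them Ucp1, were at or near 0. The part of muscle RNA in the isoform values was not tested beyond a fit with the mean muscle marker level as covariate, in which Cox8b was -0.37 and Cox7a1 0.07.

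**Figure D3:**
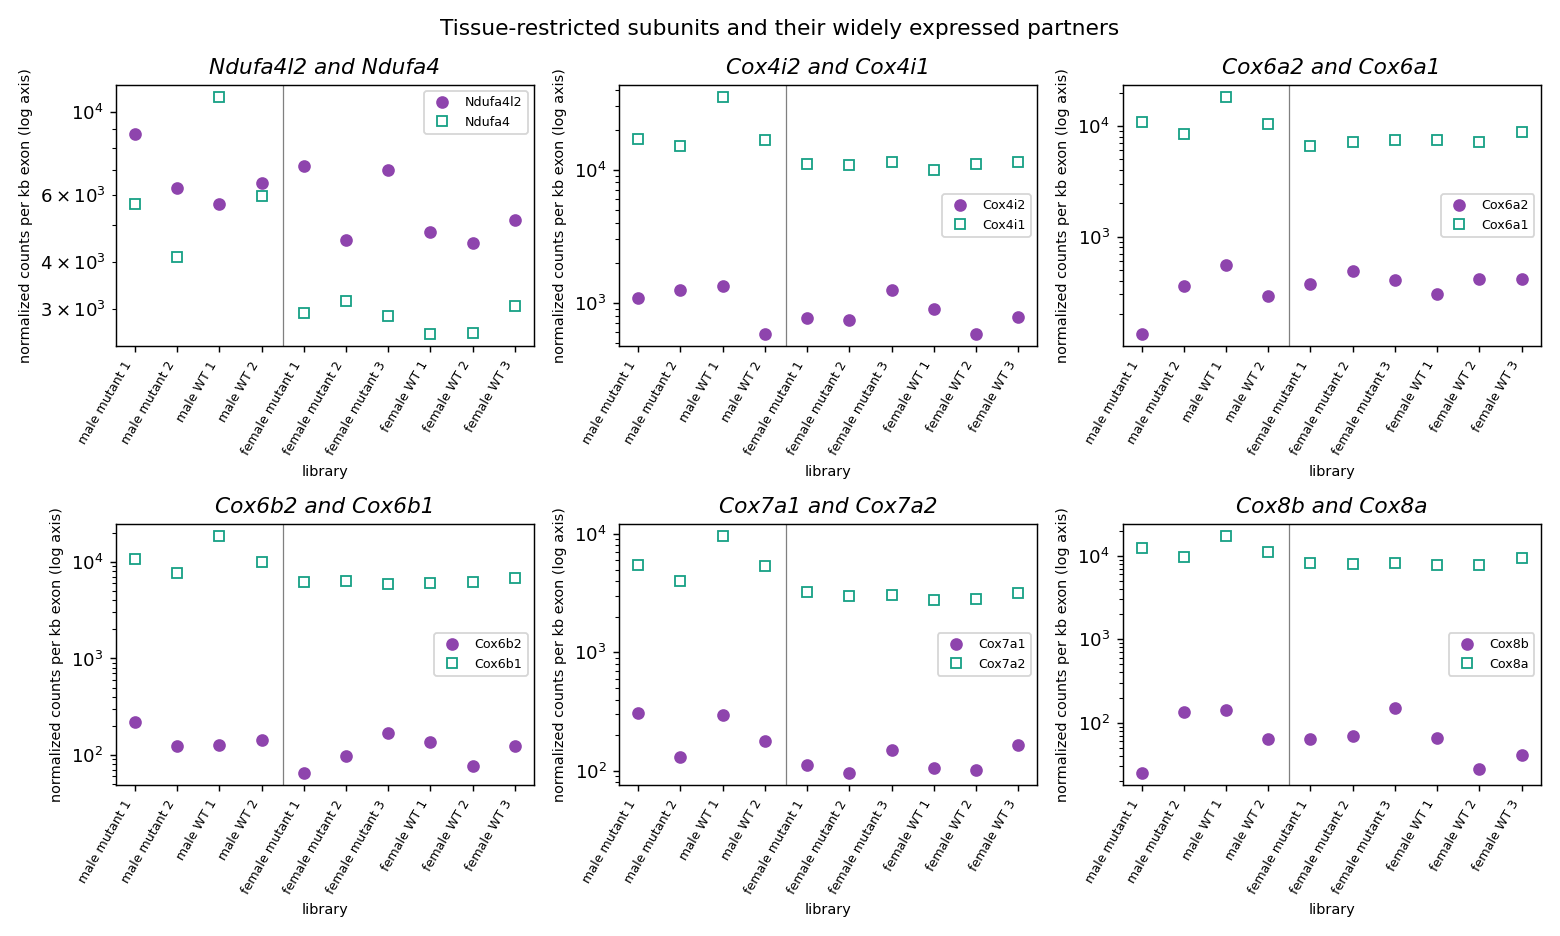
Normalized counts per kilobase of exon (log axis) of 6 tissue-restricted subunits (filled circles) and their widely expressed partners (open squares) in each library, male-labelled left and female-labelled right of the grey line. Ndufa4l2 lies at or above Ndufa4 in 9 libraries and below it in male-labelled WT 1. The 5 complex IV isoforms stay at 0.2% to 9.81% of their pairs.

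Of the 2 genes that missed the count limit, Cox7b2, a testis isoform of Cox7b, was at 0 in all 10 libraries, where 3 reads would be 2.54 to 6.58 normalized counts. Cox8c, a testis isoform of Cox8a, had 1 count in male-labelled WT 1 and 0 elsewhere. The gene nearest to the limit from above was Cox8b, with 9 to 54 counts.

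The genotype comparison was also made within each labelled sex. In male-labelled mice, 77 of 82 estimates were below 0, with a median log2 difference of -0.48, and none passed an adjusted p of 0.05 (0% of all tested genes did). An unadjusted p of 0.05 was reached by 13 genes, all lower in mutants (15.9%, against 3.89% of all tested genes lower and 4.42% higher). In female-labelled mice, 52 of 82 estimates were above 0, with a median of 0.04, and none passed (0.0139% of all tested genes did) or reached an unadjusted p of 0.05 (2.03% of all tested genes did higher and 2.4% lower). A fit of the female-labelled libraries alone passed none and gave 3 genes higher (Ndufa6, Ndufv3 and Atp5k) and 1 lower (Ndufs5) at an unadjusted p of 0.05, against 4.28% and 4.2% of all tested genes. After rescaling to equal totals outside Rn45s, the median in female-labelled mice was 0.12, against 0.08 over all tested genes.

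The difference between the labelled sexes, male minus female, had a median of -0.53 over the 82 genes. No gene passed an adjusted p of 0.05 (0% of all tested genes did), and 5 were lower at an unadjusted p of 0.05 and none higher (1.47% and 2.45% of all tested genes were). The 5 were Ndufa4, Ndufb6, Ndufb10, Ndufc1 and Atp5k. These rest on 2 mice per group and on which mouse is kept. The library labelled male mutant 2, whose sex label goes against Xist and Ddx3y, was kept in these fits. Without it the median was -0.31 in male-labelled mice and -0.33 for the difference. Without male-labelled WT 1 the median was -0.04 in male-labelled mice and -0.05 for the difference. Without male-labelled WT 2, which leaves the high library as the only male-labelled WT mouse with a spread taken from the other groups, the medians were -0.96 in male-labelled mice and -0.99 for the difference. All genes that passed were then lower: 68 of the 82 in male-labelled mice and 58 for the difference. In the same fit 30.4% of all 14362 tested genes passed in male-labelled mice (15.9% lower and 14.5% higher), and 18.6% for the difference (9.71% lower and 8.91% higher). With exon length trends removed the medians were -0.13 in male-labelled mice and -0.16 for the difference, and none passed.

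Atp5k, the e subunit that helps ATP synthase form dimers, was the only one of the 82 genes whose groups did not overlap in both labelled sexes. The share of all tested genes that did so was not counted, so it is not known whether Atp5k stands out. Without overlap, 6.77% of all tested genes were higher and 7.16% lower in female-labelled mutants, and 13.1% and 13.7% in male-labelled mutants. Atp5k has the shortest exon sequence of the 82 genes, 292 bases, and shorter genes were relatively higher in male-labelled WT 1. It had 1645 and 1251 counts in male-labelled mutants against 3632 and 1799 in male-labelled WT mice, and 1061, 1035 and 1045 in female-labelled mutants against 947, 965 and 849 in female-labelled WT mice. Mutants were thus lower in the first pair of groups and higher in the second. The log2 difference was -0.83 ± 0.28 in male-labelled mice, 0.19 ± 0.23 in female-labelled mice and -1.02 ± 0.37 between them (SE). In limma the last had an adjusted p of 0.801, and its p was below 0.05 before adjustment. The SEs take their spread from all 10 libraries, so that of 0.23 is not the spread among female-labelled mice alone.

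In female-labelled mice, 5 genes were higher in all mutants than in all WT mice (6.1%, against 6.77% of all tested genes) and 2 were lower (2.44%, against 7.16%). Besides Atp5k, the higher ones were Ndufa6 and Ndufv3 of complex I and Cox7b and Cox7c of complex IV. Ndufa6, a subunit that binds mitochondrial acyl carrier protein, had 1846, 1690 and 1805 in female-labelled mutants against 1494, 1512 and 1608 in WT mice. Cox7c had 1109, 980 and 1160 in female-labelled mutants against 892, 943 and 978 in WT mice, a gap of 2 counts between the groups. For Ndufv3, of the NADH-oxidizing module, female-labelled mutants had 2054, 1984 and 1789 and WT mice 1531, 1745 and 1759. For Cox7b, female-labelled mutants had 2395, 2214 and 2193 and WT mice 1901, 2102 and 2169. The log2 differences of these 4 genes were 0.14 to 0.21, smaller than or close to their SEs of 0.21 to 0.26. The lower ones were the complex I accessory subunit Ndufs5 and Sdhd, which had 2606, 2602 and 2583 in female-labelled mutants against 2608, 2698 and 2709 in WT mice. Ndufs5 had 180, 190 and 189 in female-labelled mutants against 204, 337 and 254 in WT mice, with a log2 difference of -0.48 ± 0.29. In male-labelled mice its mutants, with 558 and 454, and WT mice, with 596 and 279, overlapped.

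In male-labelled mice, 13 genes were lower in both mutants than in both WT mice (15.9%, against 13.7% of all tested genes) and none was higher (13.1% of all tested genes were). They were Ndufa4, Ndufa12, Ndufb4, Ndufb6, Ndufb9, Ndufb10 and Ndufc1 of complex I, Uqcrq of complex III, Cox5a and Cox5b of complex IV, and Atp5g3, Atp5k and Atp5o of complex V. Cox5a had 3655 and 2956 in male-labelled mutants against 6827 and 3848 in WT mice. Ndufb6, an accessory subunit of the membrane arm, had 1304 and 1160 in male-labelled mutants against 2475 and 1527 in WT mice, and the smallest p of the 82 genes in this comparison (0.0152, adjusted p = 0.563; log2 difference -0.66 ± 0.22).

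The difference between male-labelled and female-labelled libraries was the one in which the respiratory chain genes moved. With genotype as covariate, 63 of 82 genes rose in male-labelled libraries and none fell at an adjusted p of 0.05 (76.8%, against 9.46% of all tested genes that rose, 10.6% that fell and 20.1% in either direction). At an unadjusted p of 0.05 it was 75 higher and none lower (19.6% of all tested genes in each direction). Estimates were above 0 in 81 of 82, with a median log2 difference, male minus female, of 0.71, against 0.01 over all tested genes. The median was 0.70 in complex I, 0.60 in complex II, 0.78 in complex III, 0.74 in complex IV and 0.69 in complex V. In 62 genes (75.6%, against 10.9% of all tested genes) every male-labelled library lay above every female-labelled one. Quantile normalization, trimmed-mean rescaling and rescaling to equal totals kept 81 estimates above 0, with medians of 0.67, 0.72 and 0.64. The same comparison also contrasts the naming patterns of the libraries, and these cannot be told apart.

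**Figure D4:**
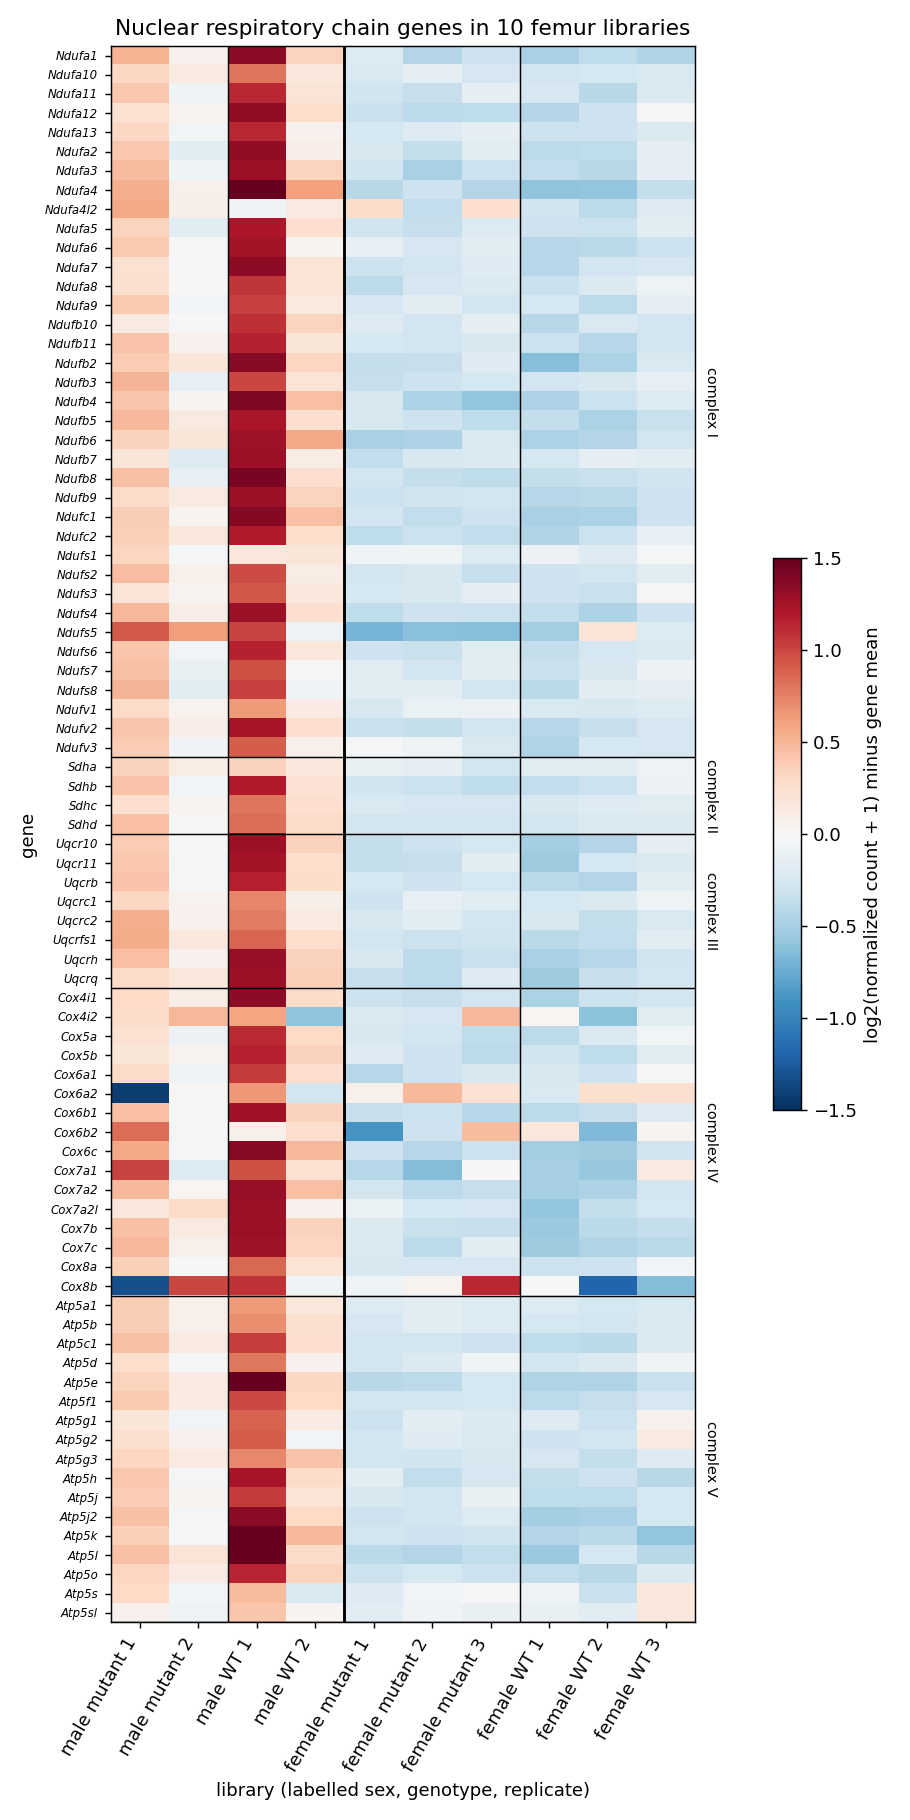
Log2(normalized count + 1) of each of the 82 genes minus its mean over the 10 libraries, by complex, with male-labelled libraries left of female-labelled ones and mutants left of WT within each. Red is above and blue below the gene's mean; values beyond 1.5 take the end colour. Male-labelled libraries are red and female-labelled ones blue for most genes, male-labelled WT 1 is darkest, and Cox6a2, Cox8b, Cox4i2, Cox6b2 and Ndufa4l2 break the pattern.

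All 4 genes of complex II and all 8 of complex III passed. In complex I, 28 of 37 passed, with log2 differences of 0.46 (Ndufv1) to 1.14 (Ndufa4); those that did not were Ndufa2, Ndufa4l2, Ndufa6, Ndufa13, Ndufb7, Ndufs1, Ndufs7, Ndufs8 and Ndufv3. In complex IV, 11 of 16 passed, from 0.59 (Cox8a) to 1.01 (Cox6c), and the other 5 were Cox4i2, Cox6a2, Cox6b2, Cox7a1 and Cox8b, all of them tissue-restricted isoforms. In complex V, 12 of 17 passed, from 0.52 (Atp5a1) to 1.01 (Atp5l), and Atp5d, Atp5g1, Atp5g2, Atp5s and Atp5sl did not.

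Atp5g3 had the smallest p. Its normalized counts were 5664 and 4958 in male-labelled mutants and 7471 and 6070 in male-labelled WT mice, against 3745, 3689 and 3826 in female-labelled mutants and 3785, 3541 and 3946 in female-labelled WT mice. The lowest male-labelled value, in the library labelled male mutant 2, was above all 6 female-labelled ones. The log2 difference was 0.67 ± 0.11 (SE; limma, adjusted p = 0.00585). Ndufa4 had the largest rise, 1.14 ± 0.22 (adjusted p = 0.0115), followed by Ndufs5, at 1.04 ± 0.25 (adjusted p = 0.023). Ndufb6 rose by 0.99 ± 0.17 (adjusted p = 0.00884), and Uqcrfs1 by 0.77 ± 0.14 (adjusted p = 0.00922).

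Uqcrfs1 had 3404 and 2569 in male-labelled mutants and 4212 and 2761 in male-labelled WT mice, against 1904, 1850 and 1870 in female-labelled mutants and 1743, 1786 and 2053 in female-labelled WT mice. All 4 male-labelled values exceeded all 6 female-labelled ones. Sdha rose least of the genes that passed, by 0.40 ± 0.09 (adjusted p = 0.0184), with male-labelled values of 6093 to 7179 against female-labelled values of 4666 to 5334. Cox6a2 was the only gene below 0, at -0.43 ± 0.33 (adjusted p = 0.359). It had 86 and 234 in male-labelled mutants and 364 and 191 in male-labelled WT mice, against 245, 324 and 269 in female-labelled mutants and 198, 273 and 274 in female-labelled WT mice, so that the groups overlapped.

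The rise was smaller without the library that stood apart. Without male-labelled WT 1 the median was 0.50 (0.02 over all tested genes), and 65 genes rose and none fell (9.75% and 10.7% of all tested genes did). Without both that library and the one labelled male mutant 2, the median was 0.60 (0.01 over all tested genes), and 71 genes rose and 1 fell (10.1% and 10.5% of all tested genes did). The one that fell was Cox6a2 (-1.02 ± 0.29, adjusted p = 0.0462). Leaving out female-labelled mutant 2, WT 1, WT 2 or WT 3, or male-labelled mutant 1, gave 39, 31, 26, 34 and 27 genes that rose and none that fell, with medians of 0.68 to 0.73. The shares of all tested genes that rose were then 3.52%, 2.95%, 2.3%, 3.24% and 3.15%. With exon length trends removed the median was 0.27 against 0.02 over all tested genes, 75 estimates were above 0, and 39 genes rose and none fell (7.81% and 8.51% of all tested genes did). The medians were then 0.30 in complex I, 0.40 in complex II, 0.30 in complex III, 0.17 in complex IV and 0.24 in complex V. In the library labelled male mutant 2, 64 of 82 genes were above all female-labelled libraries (78%, against 25% of all tested genes), and 61 of these were also below the other 3 male-labelled libraries (74.4% of the 82, against 5.44% of all tested genes).

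**Figure D5:**
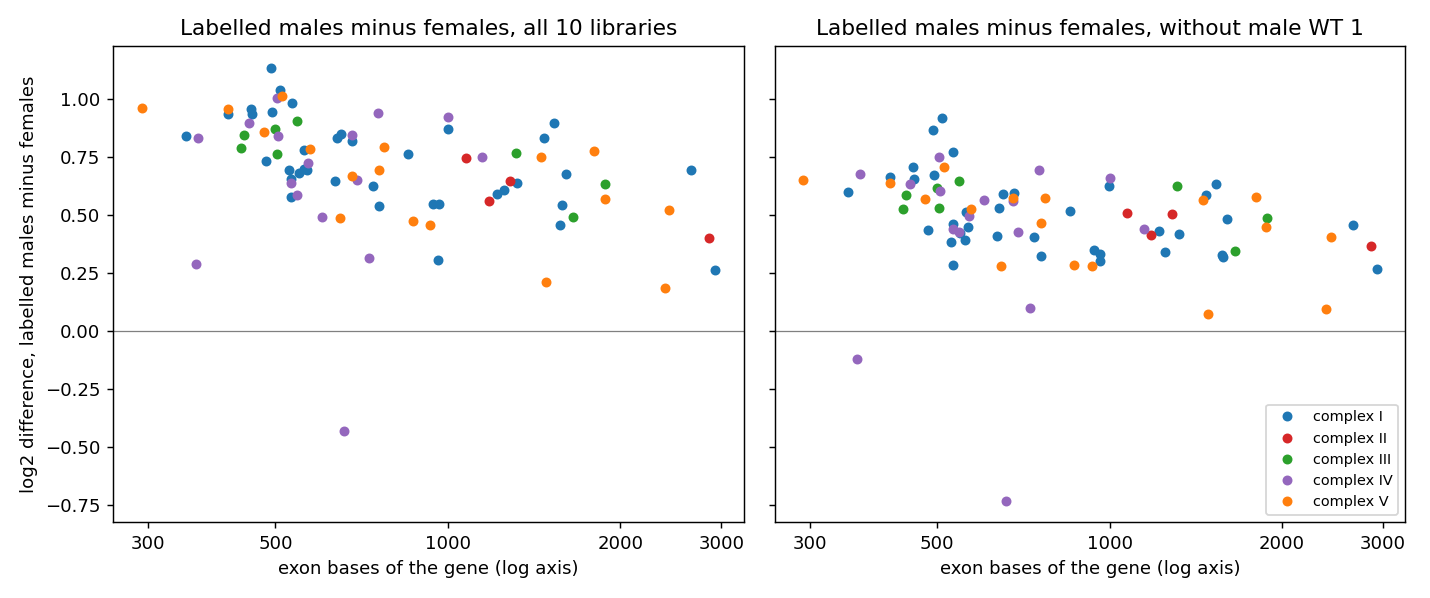
Log2 difference, male-labelled minus female-labelled libraries, of each gene against its exon length in bases (log axis), with all 10 libraries (left) and without male-labelled WT 1 (right). Colours are complexes. Shorter genes lie higher in the left panel, and without male-labelled WT 1 all genes but Cox6a2 and Cox8b stay above 0.

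Markers of other cell types were followed beside this rise, in a comparison in which 9.46% of all tested genes rose and 10.6% fell. The 8 osteoclast markers summed to 0.148% to 1.22% of counts outside Rn45s in male-labelled libraries and 0.110% to 0.359% in female-labelled ones. The 0.148% was that of male-labelled WT 1, where the respiratory chain genes had their highest summed share. It lay below all female-labelled mutants (0.241% to 0.359%). The sum was 1.22% in male-labelled mutant 1, 0.386% in the library labelled male mutant 2 and 0.372% in male-labelled WT 2. All 8 estimates were above 0 (median 1.02), of which 1 passed. The one was Ctsk, the main collagenase of osteoclasts (log2 difference 0.99 ± 0.29, adjusted p = 0.0411). The 4 white fat markers summed to 0.0136% to 0.0218% in male-labelled and 0.00726% to 0.00927% in female-labelled libraries, and 2 of them passed, Fabp4 (1.12 ± 0.15, adjusted p = 0.00366) and Cfd (2.20 ± 0.62, adjusted p = 0.0367). The 8 osteoblast markers summed to 1.6% to 3.65% in male-labelled and 3.21% to 6.83% in female-labelled libraries, with a median of -1.12 and none that passed. Of these, 1 went the other way: Spp1 averaged 323272 normalized counts in male-labelled and 178006 in female-labelled libraries (0.78 ± 0.30, adjusted p = 0.0833). The 3 tested osteocyte markers had a median of -2.38, with none that passed: Dmp1 averaged 791 normalized counts in male-labelled and 2864 in female-labelled libraries (-2.38 ± 0.89, adjusted p = 0.0795). Of 6 cartilage markers, with a median of 0.07, Col9a1 passed (1.72 ± 0.42, adjusted p = 0.025). The 4 macrophage markers overlapped, at 0.178% to 0.257% in male-labelled and 0.199% to 0.285% in female-labelled libraries. The part of cell composition in the rise was not tested. For genotype, 7 of the 8 osteoclast markers had estimates that were higher in mutants at an unadjusted p of 0.05. Of all tested genes, 3.69% were higher and 2.62% lower at that level. The exception was Atp6v0d2 (-0.29 ± 0.17). All 3 tested osteocyte markers were also above 0 (median 2.51, 2 of them at that level). All 5 endothelial markers were below 0 (median -1.14, 2 of them at that level). The osteoblast markers were mixed, with 5 above and 3 below 0. None of these markers passed an adjusted p of 0.05.

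The genes followed each other closely from library to library, which was described by Pearson's r of each gene's log2 values with the median of the other 81 over the 10 libraries. The genes share these libraries, and with them each library's depth and length slope. The median r was 0.984, and 69 of 82 genes were at 0.95 or above. The closest to the common pattern were Ndufv2, a core iron-sulphur subunit (0.998), Uqcrh (0.997) and Uqcrb (0.996). The 11 genes under 0.9 were Cox6a2 (-0.06), Cox8b (0.27), Ndufa4l2 (0.33), Cox6b2 (0.38), Cox4i2 (0.47), Atp5s (0.73), Ndufs1 (0.74), Ndufs5 (0.79), Atp5sl (0.84), Cox7a1 (0.85) and Sdha (0.89). They include all tissue-restricted isoforms that were tested and 3 of the 5 genes with the longest exon sequence. Among the female-labelled libraries the coefficient of variation of the 82 genes had a median of 6.77%, with 65 genes under 10%. Among the male-labelled ones the median was 38.5%. Neither r nor this coefficient was set against all tested genes, so neither is shown to be particular to the 82 genes.

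The 13 protein-coding genes of mitochondrial DNA were in the table, and 7 were tested. COX1, a catalytic subunit of complex IV, had 224737 and 181252 in the male-labelled mutants and 117278, 99780 and 127921 in the female-labelled mutants, against 148226 and 163390 in the male-labelled WT mice and 118283, 112273 and 125968 in the female-labelled WT mice. Male-labelled libraries were all above female-labelled ones, and male-labelled WT 1 was the lowest of them, whereas it was the highest library for 77 of the 82 nuclear genes. Genotype estimates were above 0 in 6 of 7, with a median of 0.12, and none passed or reached an unadjusted p of 0.05. Within female-labelled mice the median was -0.07. Male-labelled WT 1 was also the lowest male-labelled library for CYTB (52151), ND2 (15067), ND4 (16466) and ND5 (16226), but not for ND1 or ND6. The part of that library in the median of 0.12 was not tested. ND5 had 0.35 ± 0.23, CYTB 0.16 ± 0.14 and ND6 -0.55 ± 0.52 (log2 difference ± SE). ND6, the only one on the other strand, had 17 to 143 counts. ATP6, ATP8, COX2, COX3, ND3 and ND4L were listed at 0 to 25 counts, while ND1 and COX1, on the same strand as these, had at least 15757, so their deposited values are not read as levels. For labelled sex, 4 of the 7 rose in male-labelled libraries and none fell: ND2 (0.90 ± 0.14, adjusted p = 0.00566), ND1 (0.86 ± 0.12, adjusted p = 0.00399), CYTB (0.64 ± 0.14, adjusted p = 0.0182) and COX1 (0.60 ± 0.15, adjusted p = 0.0283). Of all tested genes 9.46% rose and 10.6% fell.

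Other nuclear genes of the pathway were set beside the subunits. Of 44 tested assembly factors, which build the complexes, 36 were below 0 for genotype (median log2 difference -0.12), as were 7446 of all 14362 tested genes. Within female-labelled mice the median of these factors was 0.0037. None of the 44 passed or reached an unadjusted p of 0.05. The smallest p-values were those of the complex V factor Tmem70 (-0.21 ± 0.10), Cox15 (0.20 ± 0.10) and the complex III factor Lyrm7 (-0.52 ± 0.28). For labelled sex, 16 of the 44 rose in male-labelled libraries and none fell. Of all tested genes 9.46% rose and 10.6% fell, which is also the background for the lists that follow. Of 17 genes of the citric acid cycle and pyruvate dehydrogenase, the genotype median was -0.04 and none passed or reached an unadjusted p of 0.05. The smallest p-values were those of Suclg1 (-0.15 ± 0.14), Dlat (0.09 ± 0.09) and Pdhx (-0.13 ± 0.14). For labelled sex 12 of 17 rose and none fell. The 13 electron carriers and other feeders of the chain had a genotype median of -0.06 with none that passed or reached an unadjusted p of 0.05, led by Coq5 (0.22 ± 0.14), Etfa (-0.17 ± 0.11) and Etfb (-0.25 ± 0.19), and 8 rose in male-labelled libraries. Among these 8, Cycs, which encodes the electron carrier cytochrome c, averaged 977 normalized counts in male-labelled and 555 in female-labelled libraries (log2 difference 0.78 ± 0.17, adjusted p = 0.0177). Ndufab1, the mitochondrial acyl carrier protein that also sits in complex I, averaged 713 in male-labelled and 380 in female-labelled libraries (0.86 ± 0.18, adjusted p = 0.0147); both were picked out after their values were seen.

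The 15 tested regulators of mitochondrial biogenesis had a genotype median of -0.01. For labelled sex, none of them rose and 4 fell in male-labelled libraries, against 9.46% of all tested genes that rose and 10.6% that fell. The 4 were Pprc1, a coactivator related to PGC-1 (-1.01 ± 0.18, adjusted p = 0.0103), Peo1, the mitochondrial DNA helicase (-0.46 ± 0.12, adjusted p = 0.0318), Polrmt, the mitochondrial RNA polymerase (-0.44 ± 0.09, adjusted p = 0.0129), and Polg, the mitochondrial DNA polymerase (-0.30 ± 0.08, adjusted p = 0.0324). Pprc1 averaged 1135 normalized counts in male-labelled and 2191 in female-labelled libraries. The regulators are longer than the subunits, with a median of 3656 exon bases against 679, and the part of length in the contrast was not tested for them. Ppargc1b, which encodes the coactivator PGC-1 beta that osteoclasts are known to use, had 196 and 106 in the male-labelled mutants and 126, 106 and 81 in the female-labelled mutants, against 27 and 96 in the male-labelled WT mice and 111, 78 and 29 in the female-labelled WT mice. Mutants ran from 81 to 196 and WT mice from 27 to 111, so the groups overlapped. The log2 difference was 1.01 ± 0.45 (SE; limma, adjusted p = 0.786, and below 0.05 before adjustment). Gabpb1, a subunit of GABP, had -0.11 ± 0.09, and Nrf1 had -0.09 ± 0.08.

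Some counts are uncertain because the handling of strand and of reads with several matches is not given in the sources used here. Exons of 16 of the 82 genes overlap another row of the table, among them Ndufa4l2 with Shmt2, Atp5f1 with Wdr77 and Atp5j with Gabpa. Uqcrh, Atp5c1, Atp5k and Atp5l have pseudogene copies by symbol in the gene annotation.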

How the data were processed

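As the labels' protocols state, TRIzol was used to extract RNA from the femurs of 10 mice, and ribosomal RNA was removed before sequencing. The tools named in the submitters' processing notes are STAR 2.5.2b and DESeq2 1.14.1, with the mouse build mm10. The file of the whole series holds 1 column per mouse. The deposited values are scores: gene counts that the authors divided by DESeq2 size factors and rounded to whole numbers, by the name of the table and its values, called normalized counts here. Each column carried the name of 1 sample, and 0 columns were left without one. Handling of strand and of reads with several matches is not given in the sources used here. Whole reads could not be recovered from the rounded values, so that count tests were not run, including the edgeR fit planned for whole counts. Tested genes had at least 10 normalized counts in at least 5 libraries.

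Log2(normalized count + 1) was fitted with limma 3.58.1 in R 4.3.3 (trend and robust variance), with Benjamini-Hochberg adjustment over all 14362 tested genes and a threshold of 0.05. Genotype was fitted with labelled sex as covariate, and 4 group means gave the contrasts within labelled sex and their difference. Fold changes on this scale understate those of low genes. The fit was tested on simulated data before use. Exon lengths and coordinates were taken from the exon positions in the deposited table, and promoters from RefSeq. The spacing of low values put 1 read at 0.845 to 2.19 normalized counts, so a count of 0 allows 3 reads (2.54 to 6.58 normalized counts), for counting error only. The estimated depth was 18.1 to 30.6 M reads (12.9 to 30.6 M outside Rn45s).

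The genes and lists were chosen with earlier results of these data known. The genes named are those past the threshold, the 3 with the smallest p per complex and list, the tissue-restricted isoforms, the highest and lowest level per complex, and those whose groups did not overlap; those that passed for labelled sex are given by their number and range. Alternatives were other normalizations, pseudocounts and filters, removal of each library's exon length trend, array weights, no sex covariate, a muscle marker covariate, a replicate block, no robust moderation, and libraries left out. All alternatives for labelled sex, other normalizations within labelled sex, rescaling to equal totals outside Rn45s, and female-labelled libraries alone with the length trend removed were added after seeing the data.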

Additional observations from a re-analysis of the deposited data

Results flagged for a closer look

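Sets of 5 libraries of 1 genotype were examined for a single value far from the others, and 5 of 64 sets had one, where chance gives about 1 in 20 for 5 values of 1 distribution. These sets mix male-labelled and female-labelled libraries, and the genes move together, so that rate is only a rough guide. In 4 of the 5 it was the high value of male-labelled WT 1. For the summed normalized counts of complex I this library had 135829 against 50914 to 74824 in the other 4 WT libraries, a gap of 0.718 of the whole range. For Ndufa12 it had 1504 against 439 to 714 (gap 0.742), for Sdhb 6752 against 2294 to 3458 (gap 0.739), and for Atp5g1 2303 against 1003 to 1360 (gap 0.725). Among mutants, Cox7a1 had 113 in male-labelled mutant 1 against 35 to 55 in the other 4 libraries (gap 0.744).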

How the results depend on the processing

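No alternative with all 10 libraries brought any of the 82 genes past an adjusted p of 0.05 for genotype, within either labelled sex or for the difference between them, and the same held for all single omissions but 1. Without male-labelled WT 2, 68 genes passed within male-labelled mice and 58 for the difference, all lower (15.9% and 9.71% of all tested genes were called lower; the cause was not tested). Across single omissions the median log2 difference for genotype ran from -0.25 to 0.01 (complex I -0.27 to 0.02, II -0.23 to -0.06, III -0.26 to 0.01, IV -0.25 to -0.0019, V -0.21 to 0.02), with 0 to 2 genes at an unadjusted p of 0.05. It ran from -0.96 to -0.041 in male-labelled mice (0 to 68 adjusted and 2 to 73 unadjusted calls), from 0.0051 to 0.09 in female-labelled mice (0 to 1 unadjusted), from -0.99 to -0.052 for their difference (0 to 58 adjusted and 1 to 72 unadjusted), and from 0.50 to 0.85 for labelled sex (26 to 73 adjusted). Single omissions took Cox6b2 from -0.12 to 0.25, Cox7a1 from -0.28 to 0.10, Cox6a2 from -0.39 to 0.068, Uqcrq from -0.27 to 0.011 and Uqcr11 from -0.29 to 0.011.

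Genes at an unadjusted p of 0.05 for genotype, 0 as reported, numbered 1 of 82 (1.22%, against 6.45% of all tested genes) with quantile normalization, 4 (4.88%, against 8.53%) with the length trend removed, 1 (1.22%, against 7.32%) with equal totals outside Rn45s, and 1 (1.22%, against 5.65%) without female-labelled WT 3 and male-labelled WT 1. They numbered 9 (11%, against 8.15%) with the library labelled male mutant 2 also left out, and 4 (4.88%) in female-labelled libraries alone, against 8.47% with the length trend and 8.89% without it. With the length trend removed there were 2 (2.44%, against 5.53%) within female-labelled and 6 (7.32%, against 9.63%) within male-labelled mice. With equal totals there were 12 (14.6%, against 3.86%) for the difference, all lower. The genotype median was -0.48 in male-labelled libraries alone (III -0.54, IV -0.56), and that of complex II was 0.038 without the 3 libraries. With the length trend removed, the median was -0.13 in male-labelled mice and -0.16 for the difference. For labelled sex it was then 0.27 (I 0.30, II 0.40, III 0.30, IV 0.17, V 0.24) with 39 genes passed.

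The numbers of the replicates paired no samples (correlations of -0.32, -0.29 and 0.0012 for female-labelled pairs; the 2 male-labelled pairs give a single value, 0.22, by construction). The replicate block gave 0 adjusted and 2 unadjusted calls (2.44%, against 6.22% of all tested genes), and 1 (1.22%, against 7.33%) with the length trend removed.

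Signs turned in single genes. Cox6b2 was -0.0095 with quantile normalization. With the length trend removed, also with the block, Cox7a1 was 0.11 and Atp5g3 0.0080. Cox6a2 was 0.13 with array weights. With the muscle covariate Cox7a1 was 0.073 and Cox8b -0.37. Without female-labelled WT 3 and male-labelled WT 1, Uqcr10 was 0.052, Uqcrq 0.031, Uqcr11 0.044, Cox6a2 0.011 and Cox7a1 0.17. With the library labelled male mutant 2 also left out, Sdhb was 0.066, Sdhd 0.026, Uqcr10 0.13, Uqcrq 0.066, Uqcr11 0.12, Cox7a1 0.35, Atp5g1 0.030 and Atp5sl 0.026. In female-labelled libraries alone, Uqcr10 was 0.052, Uqcrq 0.076, Uqcr11 0.048, Cox6a2 0.18 and Cox6b2 -0.087, and with the length trend removed 0.033, 0.058, 0.029, 0.16 and -0.10. Cox8b was -0.67 in male-labelled libraries alone. For all of these the cause was not tested. All other pseudocounts, filters and normalizations kept the genotype sign of the genes with the smallest p in each complex and of the tissue-restricted isoforms. Depth limits Cox7b2, Cox8b and Cox8c, which lie near the value of a few reads.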
